A study of Drosophila melanogaster with 3 samples.

Results

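Genomic occupancy of E(z) was examined at 8 genes for subunits of Polycomb repressive complex 1 (PRC1) and the Pho repressive complex (PhoRC). These were ph-p, ph-d, Psc, Su(z)2, Pc, Sce, Scm and Sfmbt. The set is not complete: pho, which encodes the DNA-binding subunit of PhoRC, was counted with other Polycomb group genes and had no optimal summit within 5 kb. They were taken by name from the 13945 protein-coding genes on the chromosome arms, all 8 were found in the annotation, and a peak was counted for a gene when its summit lay in the gene's span or within 5 kb of it. The data were chromatin immunoprecipitation sequencing peak lists from whole Drosophila melanogaster prepupae, males and females pooled. All 3 biological replicates carried the same transgene, which stably expresses E(z) with a C-terminal GFP, and anti-GFP antibody was used to pull the fusion down, per the sample description. The age of the animals is given as unknown, 1 donor line was used, the transgene's promoter is unstated, and the peaks average over every tissue of the animal. The 3 replicates form 1 group, so comparisons were between genes within a replicate, and the labels give each replicate a biosample of its own from that line.

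E(z) is the catalytic subunit of PRC2, which methylates lysine 27 of histone H3. PRC1 contains Pc, whose chromodomain binds that methyl mark, together with polyhomeotic, Psc or Su(z)2, and the RING protein Sce, and it compacts chromatin and ubiquitinates histone H2A. PhoRC joins the DNA-binding protein Pho to Sfmbt, and Scm is a SAM and MBT domain protein that bridges the complexes. Polycomb group genes have long been described in fly genetics as regulating one another, and a Polycomb response element is known at the polyhomeotic locus. Peaks were ranked by the authors' signal value within each list, with rank 1 the highest. The optimal list, in which the authors kept the peaks that were reproducible by their threshold, held 5623 peaks, and each replicate and the pooled data had a relaxed list of 30000 peaks. Neither the depth of sequencing nor the scaling of the signal can be told from the lists, so signals were not compared between lists.

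The strongest peak at these genes lay in ph-p, on chromosome X, and part of it has a near copy upstream of ph-d, the neighbouring paralogue. The copies are shown because they differ in whether an optimal peak covers them. The ph-p stretch (chrX:2137102-2137264, 163 bp) forms the left edge of the peak at chrX:2137102-2137586, and the ph-d stretch (chrX:2123536-2123696, 161 bp) lies 250 to 410 bp upstream of the 5′ end of ph-d. The ph-p stretch starts at the first base of the peak, so the copy may run on past the printed limits. Between ph-d and ph-p 71 words of 36 bases were repeated in the genome, against 28 in the peak. Of 167 aligned columns 151 were identical (90.4%), with 6 mismatches and 10 gap bases. Capitals mark the bases that differ between the copies or are missing from the other one. Sequences are from the plus strand of the RefSeq copy of genome release 6, with 1-based dm6 coordinates.
ph-p copy: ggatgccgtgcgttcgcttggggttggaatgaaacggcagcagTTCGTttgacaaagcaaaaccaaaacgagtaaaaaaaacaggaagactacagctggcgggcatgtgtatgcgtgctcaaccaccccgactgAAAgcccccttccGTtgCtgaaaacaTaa
ph-d copy: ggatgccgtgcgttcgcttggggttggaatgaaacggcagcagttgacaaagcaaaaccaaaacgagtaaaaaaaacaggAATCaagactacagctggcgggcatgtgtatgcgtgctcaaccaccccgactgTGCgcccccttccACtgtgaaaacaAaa
The summit of the ph-p peak was 34 bp beyond the copied stretch. The 201 bp centred on it (chrX:2137198-2137398) hold neither GAGAG, the word bound by GAGA factor, nor GCCAT, the core bound by Pho, on either strand, and so carry no capitals.
ph-p peak of rank 42: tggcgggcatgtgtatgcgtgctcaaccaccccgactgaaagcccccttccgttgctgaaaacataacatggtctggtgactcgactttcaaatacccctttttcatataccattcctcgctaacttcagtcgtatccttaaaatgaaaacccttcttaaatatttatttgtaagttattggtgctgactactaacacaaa
A weaker ph-p summit of rank 1191 in the optimal list is shown because both words occur near it (chrX:2134357-2134557, intron), in capitals, with GCCAT read on the other strand as ATGGC.
ph-p peak of rank 1191: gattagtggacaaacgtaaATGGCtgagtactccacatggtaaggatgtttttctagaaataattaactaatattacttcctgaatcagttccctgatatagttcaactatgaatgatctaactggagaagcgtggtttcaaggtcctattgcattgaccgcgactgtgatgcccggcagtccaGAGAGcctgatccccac
A summit of rank 3596 between ph-d and ph-p had overlapping GAGAG matches on the other strand (chrX:2125607-2125807, intergenic), in capitals.
ph-d peak of rank 3596: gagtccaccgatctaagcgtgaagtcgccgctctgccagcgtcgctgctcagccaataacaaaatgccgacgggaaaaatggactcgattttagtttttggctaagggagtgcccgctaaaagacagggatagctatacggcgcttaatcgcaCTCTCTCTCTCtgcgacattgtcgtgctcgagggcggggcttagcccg
The window of the Pc summit (chr3L:21304468-21304608, 141 bp, in an intron of the neighbouring gene CG11309) held neither word.
Pc peak of rank 69: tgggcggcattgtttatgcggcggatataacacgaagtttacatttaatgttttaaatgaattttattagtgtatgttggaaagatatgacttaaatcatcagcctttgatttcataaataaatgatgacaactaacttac

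Optimal summits lay at 7 of the 8 genes, against 37.0% of all protein-coding genes measured the same way. Scm was the gene without one. The distinct summits numbered 20, of which 3 were in reach of both ph-p and ph-d. They were concentrated at the paralogous pairs: 8 lay at ph-p and ph-d and 9 at Psc and Su(z)2, while Pc, Sce and Sfmbt had 1 each. Per 100 kb of gene window this was 13.9 summits for the 8 genes and 4.57 for all protein-coding genes. The ph-p and ph-d windows held 24.5 per 100 kb, the Psc and Su(z)2 windows 19.4, and those of Pc, Sce, Scm and Sfmbt together 4.62. Without ph-p and ph-d the density was 10.8, and without Psc and Su(z)2 it was 11.3. The windows of the 8 genes were longer than usual, with a median of 19.5 kb against 12.2 kb for all genes, and a longer window can hold more summits.

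A stricter link between summit and gene separated the same 8 genes into those with and without a summit of their own. A summit within 1 kb of an annotated transcription start site (TSS) was found at 4 of 8 genes, ph-p, ph-d, Psc and Su(z)2, against 16.1% of all genes. The same 4 genes were the nearest TSS of at least 1 summit, against 19.2% of all genes. At least 4 summits within 5 kb were counted at 3 of 8 genes, ph-p, Psc and Su(z)2, against 4.58% of all genes. A relaxed pooled peak at a TSS, by the same 1 kb limit, was again present at the 4 paralogues, against 35.2% of all genes. Pc, Sce, Scm and Sfmbt had no such peak in any replicate's relaxed list. Because the genes were chosen with results of these data known, the counts are descriptions and carry no test.

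**Figure D1:**
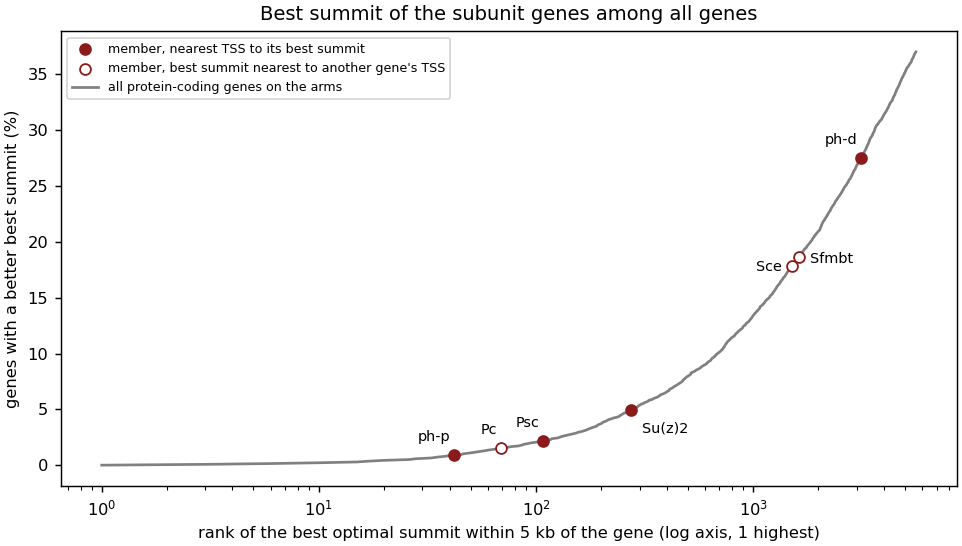
Rank of each gene's highest-ranked optimal summit within 5 kb (x axis, log scale, 1 highest) against the percentage of protein-coding genes with a higher-ranked one (y axis). Filled points are subunit genes that are the nearest TSS of that summit, open points are subunit genes whose summit is nearest another gene's TSS, the grey line is all protein-coding genes, and Scm, which had no summit, is not drawn; ph-p, Pc, Psc and Su(z)2 lie below 5% and ph-d highest at 27.5%.

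The highest-ranked summits of the 7 genes that had one ran from rank 42 to rank 3141 of 5623, as the plot of best rank among all genes shows. The order was ph-p at rank 42, Pc at 69, Psc at 108, Su(z)2 at 275, Sce at 1518, Sfmbt at 1626 and ph-d at 3141. A higher-ranked summit within 5 kb was held by 0.882% of protein-coding genes for ph-p, 1.51% for Pc, 2.17% for Psc and 4.91% for Su(z)2. For Sce the share was 17.9%, for Sfmbt 18.6% and for ph-d 27.5%. Of the 20 summits, 12 were among the 2811 highest-ranked of the 5623 in the optimal list. A relaxed peak covered 17 of the 20 in all 3 replicates and 3 in 2 replicates. Within 1 kb of a TSS of any gene 10 of 12 were covered in all 3, against 2068 of 2293 optimal summits. Farther from a TSS it was 7 of 8, against 3181 of 3330. Over the replicates the ranks of neighbours in this order overlapped for Pc and Psc, at 56 to 103 and 100 to 134, and for Psc and Su(z)2, at 100 to 134 and 95 to 484. They also overlapped for Sce and Sfmbt, at 765 to 2455 and 987 to 13894. Sfmbt and ph-d overlapped too, with the highest-ranked ph-d summit of each replicate at 734 to 2335. The 2335, in replicate 3, is of the ph-d summit of rank 3596, because no peak of that replicate contained the summit of rank 3141. Su(z)2 and Sce did not overlap. The ranks of ph-p, at 32 to 41, overlapped with none of the others.

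The polyhomeotic locus holds ph-p (X, 2126210 to 2138371, minus strand) and ph-d (X, 2115727 to 2123286, minus strand), tandem duplicates that encode SAM domain proteins of PRC1. Within ph-p, 4 summits were nearest its own TSSs. The summit of rank 42 at position 2137298 lay in an intron, 443 bp upstream of an internal TSS, and ranked 40, 32 and 41 in replicates 1, 2 and 3 (mean 37.7 ± 4.93, SD, n = 3). This was the smallest SD among the 20 summits in absolute rank, a measure that tends to be small near rank 1. Relative to its mean the SD was smaller at the ph-p summit of rank 2458 (mean 2710 ± 201, SD, n = 3). A further summit of rank 229 lay 439 bp downstream of a TSS, in the 5′ UTR, and ranked 101, 189 and 495. Intronic summits of optimal rank 1149 and 1191 lay 1256 and 2165 bp downstream of a TSS. The summit of rank 1191 ranked 1489, 1026 and 1476 in the replicates, and that of rank 1149 ranked 870, 996 and 3490, lower in replicate 3. Upstream of ph-p, a summit of rank 2458 was nearest the TSS of D2hgdh, 804 bp away.

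The 3 summits nearest ph-d were weaker and less uniform. The summit of rank 3141 lay 827 bp upstream of its 5′ TSS and ranked 734 and 1673 in replicates 1 and 2, and no peak of replicate 3 contained it. Replicate 3 had instead a peak with its summit at 2124548 and rank 641, farther upstream of the TSS. The summit of rank 3256, in a ph-d intron, was absent from the list of replicate 1 and ranked 2316 and 4625 in replicates 2 and 3. The last, of rank 3596 and 2421 bp upstream of the TSS, ranked 4843, 5686 and 2335.

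**Figure D2:**
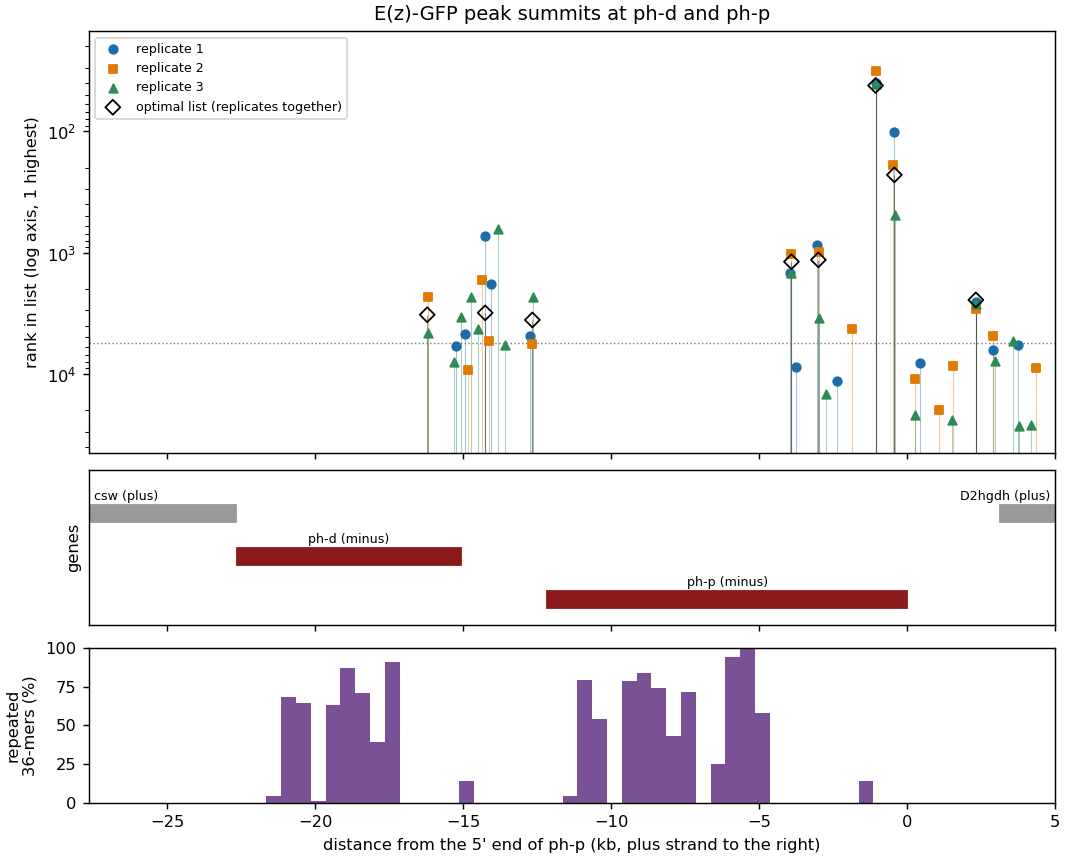
Peaks at ph-d and ph-p against distance from the 5′ end of ph-p (kb, plus strand to the right). Upper panel, rank of each summit (log axis, 1 highest; the dotted line is rank 5623) in replicates 1, 2 and 3 and in the optimal list; middle panel, genes with their strands; lower panel, percentage of 36-base words in 0.5 kb bins that occur more than once in the genome. The replicates coincide at the ph-p summit of rank 42, and the duplicated blocks of 4333 bp in ph-d and 4279 bp in ph-p hold no summit. Not every repeated word is shared by the 2 genes: of 3903 repeated words in the ph-p span, 2447 occur in the ph-d span.

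Within each replicate ph-p was ranked above ph-d. The highest-ranked of its summits was at 40, 32 and 41, against 734, 1673 and 2335 for ph-d (mean 37.7 ± 4.93 and 1581 ± 804, SD, n = 3). The ranks differed 18.4-fold, 52.3-fold and 57-fold, and the groups did not overlap. The ph-d ranks were from the summit of rank 3141 in replicates 1 and 2 and from that of rank 3596 in replicate 3. Their mean and SD therefore mix different summits, and the 57-fold of replicate 3 depends on which ph-d peak is used. On the log10 rank scale ph-p minus ph-d was -1.58 ± 0.27 (SD, n = 3), with ph-p ranked higher in 3 of 3 replicates, and an exact two-sided sign-flip permutation test gave p = 0.25, the smallest value that 3 replicates allow. With the highest-ranked replicate peak of each window, which for ph-d in replicate 3 was at rank 641, the difference was -1.39 ± 0.28 (SD, n = 3).

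The tandem copies share part of their sequence. Of the 36-base words in the ph-d span 32.5% also occurred in the ph-p span. The duplicated blocks, 4333 bp in ph-d (X, 2116884 to 2121216) and 4279 bp in ph-p (X, 2126842 to 2131120), held 0 summits in the optimal list, the pooled list and all 3 replicate lists. None of the other 19 peaks at the 8 genes contained a repeated 36-base word. The peak of rank 42 contained 28 of 450 (6.22%), all with their second copy in the stretch upstream of ph-d printed above. Over that copy the optimal list had no peak, the pooled list had 1 of rank 6128, and the best replicate ranks were 4697, 9343 and 2313. The stretch at the ph-p summit of rank 229 (130 of 158 columns identical, 82.3%) had its counterpart 960 to 1113 bp upstream of ph-d, with a pooled rank of 6631, ranks of 1819 and 5382 in replicates 1 and 2, and no peak in replicate 3. The sources used here give neither read length nor the treatment of reads that match more than 1 place, and their part in the difference between ph-p and ph-d was not tested.

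Psc and Su(z)2, related RING finger genes, lie head to head on arm 2R and shared the second cluster of summits. Psc (12965997 to 12980994, minus strand) encodes the PRC1 subunit that compacts nucleosome arrays, and Su(z)2 (12996501 to 13007911, plus strand) can take its place in PRC1. No 36-base word was shared between their spans. The highest-ranked summit of Psc, rank 108 at position 12975582, lay 5076 bp downstream of a TSS in an intron and ranked 100, 134 and 124 (mean 119 ± 17.5, SD, n = 3). Its upstream summit of rank 311 ranked 128, 600 and 950, and that at the promoter, 114 bp into the 5′ UTR and of rank 692, ranked 1136, 1211 and 156. The highest-ranked summit of Su(z)2, rank 275 at position 12996481, lay 20 bp upstream of its TSS and ranked 484, 417 and 95 (mean 332 ± 208, SD, n = 3). The other summits nearest Su(z)2 were weak, with optimal ranks of 3568, 3641 and 3946.

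**Figure D3:**
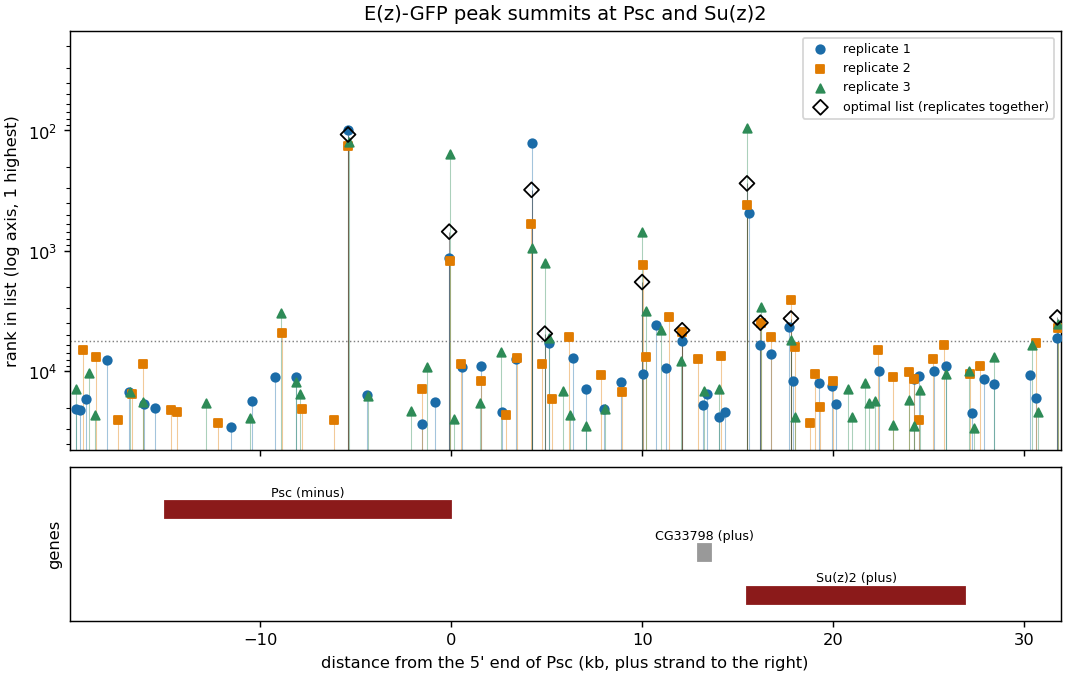
Peaks at Psc and Su(z)2 against distance from the 5′ end of Psc (kb, plus strand to the right). Upper panel, rank of each summit (log axis, 1 highest; the dotted line is rank 5623) in replicates 1, 2 and 3 and in the optimal list; lower panel, genes with their strands. The replicates coincide at the intronic Psc summit of rank 108, and replicate 3 stands above the others at the Psc and Su(z)2 promoters.

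The 15.506 kb between the genes held 5 optimal summits. One of them, of rank 1813 at position 12990987, was more than 5 kb from either gene and is not among the 20, and it ranked 10605, 1310 and 701 in the replicates. Counting it, 10 summits lay over the 51.915 kb from 5 kb below Psc to 5 kb above Su(z)2. A summit of rank 4560 in this interval was nearest the TSS of CG33798, 812 bp away. A summit of rank 4864, 4897 bp upstream of Psc, was absent from the list of replicate 1 and ranked 8663 and 1252 in replicates 2 and 3. It was just inside the 5 kb limit at Psc, where the next summit was 6553 bp away, and at Su(z)2 the limit fell between 4825 and 5514 bp.

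Between Psc and Su(z)2 no order held in all replicates. Psc was at ranks 100, 134 and 124, against 484, 417 and 95 for Su(z)2, so that Psc was ranked higher in replicates 1 and 2 and Su(z)2 in replicate 3. On the log10 rank scale Psc minus Su(z)2 was -0.35 ± 0.42 (SD, n = 3; exact two-sided sign-flip permutation p = 0.5), a difference within the spread between replicates. The sign turned when only peaks within 1 kb of a TSS were used: Psc was then at 1136, 1211 and 156, against 484, 417 and 95 for Su(z)2, and the difference was 0.35 ± 0.13 (SD, n = 3), with Su(z)2 ranked higher in 3 of 3 replicates (exact sign-flip permutation p = 0.25, the smallest possible).

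**Figure D4:**
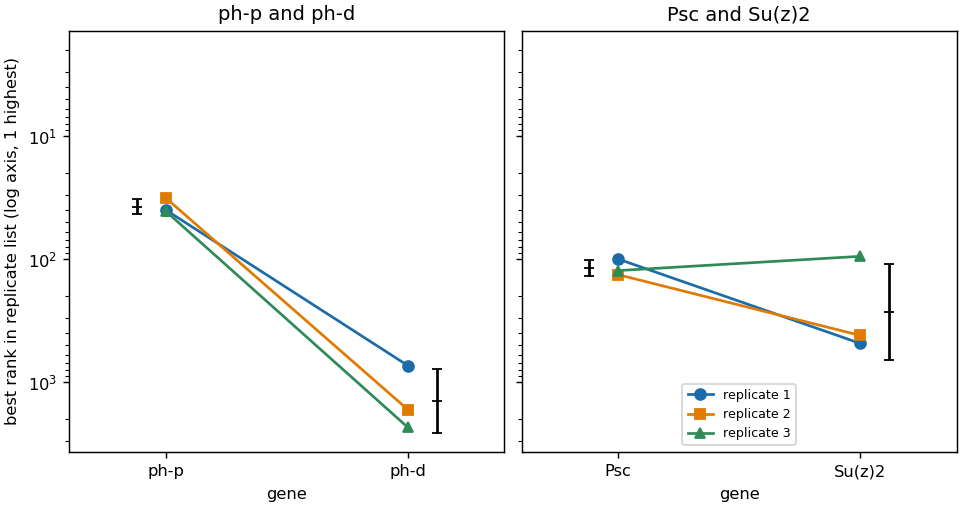
Highest rank among each gene's summits in replicates 1, 2 and 3 (y axis, log scale, 1 highest) for ph-p and ph-d and for Psc and Su(z)2; lines join the genes within a replicate, and black bars are the mean ± SD of log10 ranks (n = 3). All lines fall between ph-p and ph-d, while between Psc and Su(z)2 the lines of replicates 1 and 2 fall and that of replicate 3 rises.

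Pc, Sce and Sfmbt each had 1 optimal summit in reach, and each was nearest the TSS of another gene and past the 3′ end of the subunit gene. Pc (3L, 21306138 to 21318020, minus strand) encodes the chromodomain protein that gives the group its name. Its summit ranked 63, 103 and 56 in the replicates (mean 74.0 ± 25.4, SD, n = 3), lay 1573 bp past the 3′ end and 13455 bp from the TSS of Pc, and was 93 bp from that of CG11309. Sce (3R, 27680431 to 27682029, minus strand) encodes the H2A ubiquitin ligase also called dRing. Its summit ranked 2432, 2455 and 765 (mean 1884 ± 969, SD, n = 3), lay 2823 bp past the 3′ end, and was 86 bp from the TSS of Hsdl2. Sfmbt (2L, 13169649 to 13176785, minus strand) encodes the MBT partner of Pho. Its summit ranked 1198, 987 and 13894 (mean 5360 ± 7392, SD, n = 3), lay 4353 bp past the 3′ end and 268 bp from the TSS of Sirt1. Replicate 3 was far below the others there, although it had another peak in the same window, of rank 5364.

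Scm (3R, 9633359 to 9637611, minus strand) had no optimal summit, and the nearest was 14808 bp away. Its window held 0 peaks in the pooled list and in the relaxed lists of replicates 1 and 2. Replicate 3 had 1, of rank 1094, at position 9630768 and 83 bp from the TSS of Calr.

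**Figure D5:**
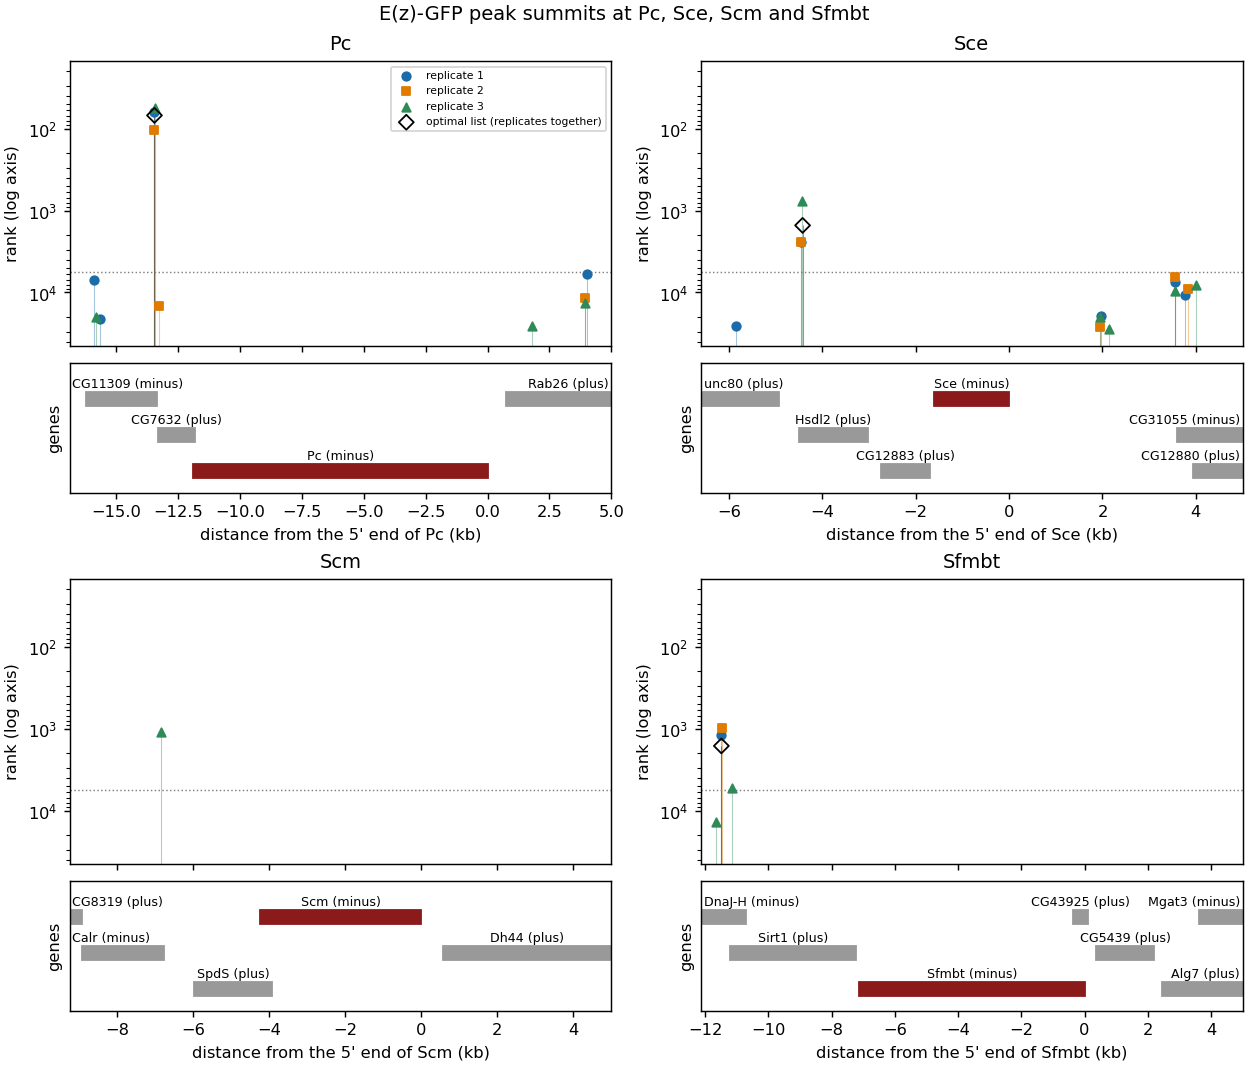
Peaks at Pc, Sce, Scm and Sfmbt against distance from each gene's 5′ end (kb, plus strand to the right). For each gene the upper panel gives the rank of each summit (log axis, 1 highest; the dotted line is rank 5623) in replicates 1, 2 and 3 and in the optimal list, and the lower panel the genes with their strands; the optimal summits of Pc, Sce and Sfmbt sit at a neighbouring gene, and Scm has a peak of replicate 3 alone.

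The rank of replicate 3 against the others was also counted by distance from a promoter, a count that was not among the planned results. At the 10 summits of these genes that lay within 1 kb of a TSS of any gene and were found in all replicates, 5 ranked higher in replicate 3 than in both other replicates, against 35.8% of all such optimal summits. At the 7 summits farther from a TSS the count was 2, against 24.0%. The promoter summits of Psc, at rank 156, and of Su(z)2, at rank 95, and the summit at Sce, at 765, were among those ranked higher in replicate 3.

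Sequence words known from Polycomb response elements were counted within 250 bp of each summit, on both strands and with overlapping matches. GAGAG occurred at 15 of the 20 summits, against 59.5% of all 5623 optimal summits. GCCAT, the Pho core, occurred at 6 of 20, against 59.6%. GAAAA, known as a word of Dsp1, occurred at 18, against 95.1%, and TGAGCG, a word of Zeste, at 2, against 19.6%. The Psc summits of rank 692 and 4864 and the Su(z)2 summit of rank 275 had 10 GAGAG matches each, a number reached at 2.67% of all optimal summits. The ph-p summit of rank 42 had 1 GAGAG match and 0 GCCAT matches, and the Pc summit had none of either. With 100 bp on each side GAGAG was at 7 of 20, against 28.2%, and GCCAT at 3 of 20, against 26.7%.

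Among 19 other Polycomb group genes 7 (36.8%) had an optimal summit within 5 kb, against 37.0% of all protein-coding genes. Within 1 kb of a TSS 3 (15.8%) had one, against 16.1%, and 4 (21.1%) were the nearest TSS of 1, against 19.2%. These shares were near those of all genes. At least 4 summits within 5 kb were counted at 3 (15.8%), against 4.58%. Caf1-55, which encodes a histone-binding PRC2 subunit, had the highest rank at 19, with 12, 27 and 36 in the replicates, at a summit nearest the TSS of Art3. The PRC2 accessory gene jing had 12 summits, the highest at 55 in the optimal list and 102, 61 and 13 in the replicates. The summit at phol, a paralogue of pho, ranked 58 and was nearest the TSS of CG3552, and that at Pcl ranked 366 and was nearest the TSS of pAbp. No optimal summit was in reach of Asx or caly. E(z), the precipitated protein's own gene, and pho, picked after their values were seen, also had none.

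The replicate ranks most like those of ph-p belonged to the summit at CG18659, GstE13 and Su(var)2-10, which lie within 5 kb of the same peak. It ranked 48, 28 and 40 in the replicates and 34 in the optimal list, a Euclidean distance of 0.0987 in log10 ranks over the 3 replicates.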

How the data were processed

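Chromatin immunoprecipitation sequencing of E(z)-GFP was done on 3 biological replicates of whole prepupae. The antibody field of the labels names E(z) and the description an anti-GFP precipitation; the second was taken. The authors deposited, per the submitters' text with each sample, relaxed lists (peaks with background regions) for each replicate and for the pooled data, and an optimal list filtered by irreproducible discovery rate, on dm6 and dm3. Only dm6 was used, and a possible control experiment named in the labels was not analysed. The deposited signal value of a peak has no stated scaling, so it served only to rank peaks within a list (ties share the lowest rank number). The peak caller and aligner used are not given in the sources at hand, and depth is unknown, so no counting interval was derived.

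Summits were placed from the deposited peak starts and summit offsets and written 1-based. Genes were protein-coding genes of Ensembl release 115 (BDGP6.54) on the 6 arms, with 19607 TSSs, and all 8 subunit genes had the same coordinates in RefSeq. A replicate's rank at an optimal summit was that of its highest-ranked peak containing it. The pairs of paralogues were compared within replicates by exact two-sided sign-flip permutation tests. Repeats were found as 36-base words seen more than once on either strand, and copies by local alignment (Biopython 1.88). The links of summits to genes, TSSs and replicate ranks were tested on simulated data with summits planted inside gene spans. Word matches and the permutation test were tried on made-up input. The edge of the 5 kb window, the repeat search and the alignment were not tested in this way. Python 3.11.15, numpy 2.4.6, pandas 2.3.3 and matplotlib 3.10.9 were used. Members and lists were chosen with earlier results of these data known. The genes named are the 8 members, the other Polycomb group genes with the highest ranks and the alphabetically first without a summit, the nearest gene of each summit, and the 3 genes closest to ph-p in rank. Of the other Polycomb group list 1 gene was matched through a synonym.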

Additional observations from a re-analysis of the deposited data

How the results depend on the processing

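The number of subunit genes with an optimal summit was 7 of 8 within 5 kb and fell to 4 under each of 4 narrower links. These were the span alone, 1 kb from the span, 1 kb from a TSS and the nearest TSS. The shares of all genes were 37.0% within 5 kb, and 11.6%, 21.6%, 16.1% and 19.2% under the narrower links in that order. Within 10 kb of the span it was again 7 genes, with 26 summits, against 51.8% of all genes. With the first 5623 peaks of replicates 1, 2 and 3 in place of the optimal list it was 7, 7 and 8 genes. The summits then numbered 20, 24 and 26, and the shares of all genes were 39.4%, 38.9% and 42.1%. With the 2811 highest-ranked peaks alone it was 6 genes, against 25.7%. With summits found in all 3 replicates' top lists it was 5, against 26.5%. The 20 summits became 9, 12 and 7 for the span alone, 1 kb from the span and 1 kb from a TSS, 12 among the 2811 highest-ranked peaks and 13 among those found in all replicates' top lists. All 3 top lists, the first 5623 peaks of each replicate, held 3141 of the 5623 optimal summits. To leave out a replicate, the optimal list, made from all 3, was kept, and a summit had to be in the top lists of both other replicates. This gave 14 to 16 summits and 6 to 7 genes, against 28.3% to 30.6% of all genes. These counts belong beside the 13 summits found in all top lists, and the fall from 20 is not the effect of removing a replicate. The log10 rank difference of ph-p minus ph-d kept its sign under the 7 alternatives run, but most of them could hardly change it. It was -1.74 to -1.49 when a replicate was left out, where the sign was fixed because the difference was negative in every replicate. Matching summits within 200 bp, peaks within 1 kb of a TSS and the best summit in each window all gave -1.58, the main value. The highest-ranked replicate peak in each window, an alternative chosen after seeing the data, gave -1.39. Psc minus Su(z)2 was -0.59 to -0.19 when a replicate was left out, and reversed to 0.35 with only peaks within 1 kb of a TSS, where the Psc intronic summit does not enter. Other Polycomb group genes with a summit numbered 3 of 19 within 1 kb of a TSS and 7 of 19 within 5 kb, where the shares of all genes were 16.1% and 37.0%. Windows of 100 bp gave GAGAG at 7, GCCAT at 3 and TGAGCG at 1 of the 20 summits, against 15, 6 and 2 with 250 bp, since they hold fewer bases. Pc, Sce and Sfmbt have no value under a TSS rule. Samples could not be paired between groups because there is only 1 group. The gene differences above were paired in that they were taken within each replicate. Ranks give no size of binding, the lists give no depth, and 3 replicates cannot bring the permutation p below 0.25.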
